A study of Rattus norvegicus with 18 samples.

Results

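Bone beside ACPC-NP scaffolds was compared with bone beside PCL scaffolds 2 weeks after implantation, in 3 libraries of each, which are 6 of the 18 libraries of the series. They were chosen by their labels (scaffold and week). All came from wild-type rats (WT in the labels) in which a critical-size defect of the radius, a gap too wide to close unaided, had been filled with a 3D-printed scaffold. PCL is bare polycaprolactone, a slowly degrading polyester, and it served as the control. ACPC-NP is the same polymer carrying nanoparticles of amorphous calcium phosphate, a disordered form of bone mineral, and chitosan, a sugar polymer made from chitin. The other 12 libraries cover a scaffold with calcium phosphate microparticles (CaP) and all 3 scaffolds at week 6. Cells were freed with enzymes from marrow, after lysis of red blood cells, and from bone within 1 mm of the scaffold on either side, pooled, and sequenced as polyadenylated RNA. The sources used here give no strain, sex or age, nor do they say if each library is from its own animal, so p-values measure only the spread between these libraries, which may be technical.

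A bone defect heals through inflammation, clearance of debris and the coupled work of osteoclasts, which dissolve mineral and matrix, and osteoblasts, which lay new bone down. Monocytes that reach an implant become macrophages, which take up particles and dead cells, release proteases and chemokines, and can also fuse into giant cells or osteoclasts. The labels tie the comparison to the question of how the nanoparticles affect bone formation around the scaffold. Levels are given as CPM, counts per 1000000 reads of the TMM-scaled library size, always in the order of replicates 1, 2 and 3. Differences are edgeR's log2 differences of ACPC-NP minus PCL ± a standard error. EdgeR does not report this error, so it was derived as the size of the difference over the square root of the test's F statistic. The term "adjusted p" is that of edgeR's quasi-likelihood test after Benjamini-Hochberg adjustment over all genes tested. A gene is called separated when the 3 CPM values of one scaffold do not overlap the 3 of the other.

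The 6 libraries held 23695169 to 25622793 counts. ACPC-NP replicate 3 lay apart: its first principal component score was 91.4, where the other 17 libraries lay between -23.9 and 25.5, and its TMM factor was 0.706 against 1.01 to 1.05 in the other 5 libraries compared here. Results are therefore also given without it. The tissue label was borne out by markers in all 6 libraries: Col1a1, the main bone collagen, stood at 7546 to 23464 CPM, Acp5 of osteoclasts at 120.1 to 392 and the neutrophil protein S100a9 at 7524 to 10762, while the skin keratin Krt5 had 0 counts. In mixed tissue such as this, fewer cells of a type and less RNA per cell cannot be told apart.

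EdgeR called 0.0% of the 11814 genes tested (0 genes), and its smallest adjusted p was 0.0712. Before adjustment 1453 higher genes (12.3%) and 401 lower ones (3.39%) had a p under 0.05. Without ACPC-NP replicate 3 it again called 0.0%; 515 higher (4.31%) and 233 lower (1.95%) had an unadjusted p under 0.05, and 0.131 was the smallest after adjustment. As alternatives, DESeq2 called 601 higher genes (5.09%) and 30 lower ones (0.254%), while voom, weighted by library quality, called 243 higher (2.06%) and 38 lower (0.322%). Without replicate 3 DESeq2 called 48 higher (0.402%) and 2 lower (0.0167%), and voom called 0. Leaving out ACPC-NP replicate 1 or 2 instead, edgeR called 852 higher (7.13%) and 25 lower (0.209%) without replicate 1, and 378 higher (3.16%) and 5 lower (0.0419%) without replicate 2. All 48 higher genes of DESeq2 without replicate 3 were also among the 601. The CPM ranges were separated with ACPC-NP higher for 1130 genes (9.56%) and with ACPC-NP lower for 874 (7.4%).

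The ACPC-NP libraries did not contribute equally to the higher genes. Among the 1130 separated higher genes the highest value was in replicate 3 for 950, in replicate 1 for 122 and in replicate 2 for 58. The 601 genes DESeq2 called higher had a median log2 difference of 1.65, which was 0.70 without replicate 3, and the sign was the same without it for all 601. The 30 it called lower had a median of -0.78, which was -0.74 without that library. None of these 30 was called without replicate 3 (0 of 30): the 2 lower calls at that setting were other genes.

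**Figure D1:**
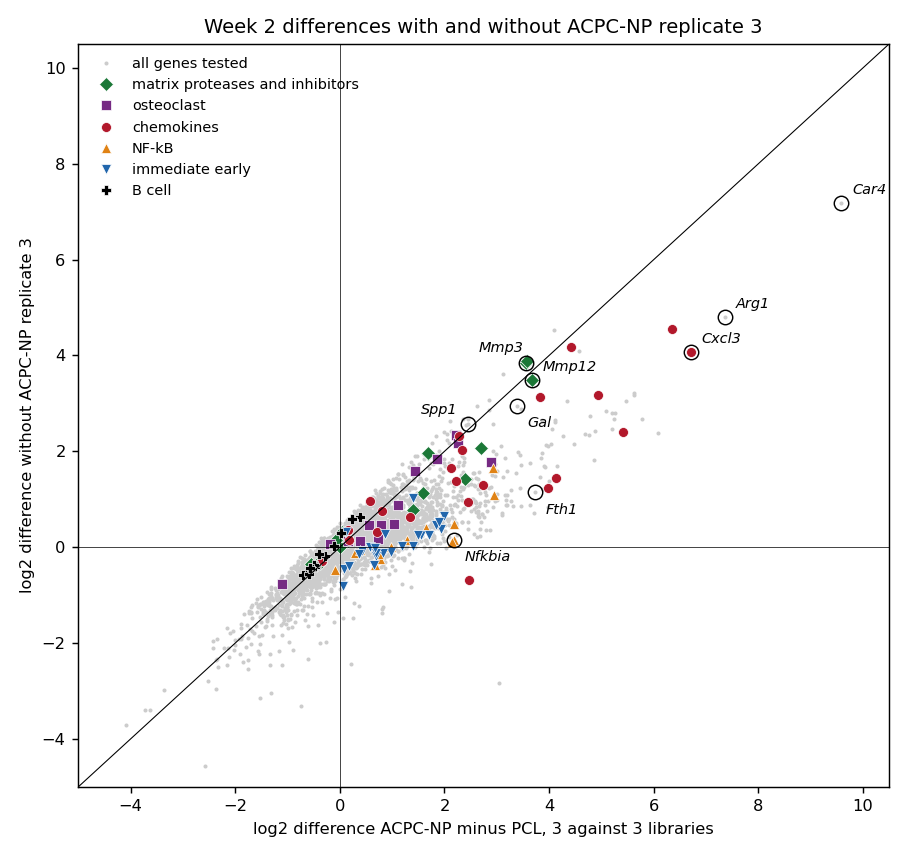
Log2 difference of ACPC-NP minus PCL at week 2 from all 6 libraries (horizontal axis) against the same difference without ACPC-NP replicate 3 (vertical axis), 1 point per gene, with 6 gene lists in colour and 9 genes circled. Mmp3, Mmp12 and Spp1 lie near the diagonal of equal values, Nfkbia lies near 0 on the vertical axis (0.15), and most chemokines lie between.

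Genes that were high in all 3 ACPC-NP libraries to a like extent included secreted products of macrophages and osteoclasts. Spp1, which encodes osteopontin, a mineral-binding protein of osteoblasts, osteoclasts and macrophages, stood at 2773, 3114 and 2239 CPM with ACPC-NP and at 260.1, 745 and 482 with PCL. Mmp12, the elastase of macrophages, stood at 487, 438 and 651 against 17.5, 64.1 and 41.5. The lowest ACPC-NP library was above the highest PCL library for both genes. The differences were 2.45 ± 0.61 for Spp1 (adjusted p = 0.0846) and 3.68 ± 0.84 for Mmp12 (adjusted p = 0.0818). Without replicate 3 they were 2.56 and 3.49. In the 3 CaP libraries of the same week Mmp12 ranged from 25.0 to 65.1 CPM, and in PCL from 17.5 to 64.1.

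Gal, the neuropeptide galanin, had the smallest unadjusted p of all genes. It stood at 10.4, 6.11 and 16.6 CPM with ACPC-NP and at 0.805, 1.31 and 1.04 with PCL, so the groups were separated at low levels. Its difference was 3.38 ± 0.53 (adjusted p = 0.0712) and 2.95 without replicate 3, where DESeq2 gave an adjusted p of 4.82e-05. Of the 10 neuropeptide genes listed, 3 had enough reads to be tested, and Gal was the only one separated higher. Trem2, a lipid-sensing receptor of macrophages and osteoclast precursors, stood at 44.3, 37.6 and 37.3 against 9.39, 16.1 and 19.4, a difference of 1.41 ± 0.54 (adjusted p = 0.214). Fn1, fibronectin of provisional matrix, stood at 5834, 4943 and 6565 against 2225, 3109 and 3610. It was the only 1 of 14 tested fibrous matrix genes separated higher, beside 9.56% of all genes, and that list's median was 0.03. Il18bp, the secreted inhibitor of interleukin 18, stood at 16.9, 12.5 and 18.4 against 6.44, 5.86 and 6.08, a difference of 1.38 ± 0.31 (adjusted p = 0.0818). All 3 were separated, and no single ACPC-NP library carried the difference: without replicate 3 they were at 1.45, 0.85 and 1.25.

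**Figure D2:**
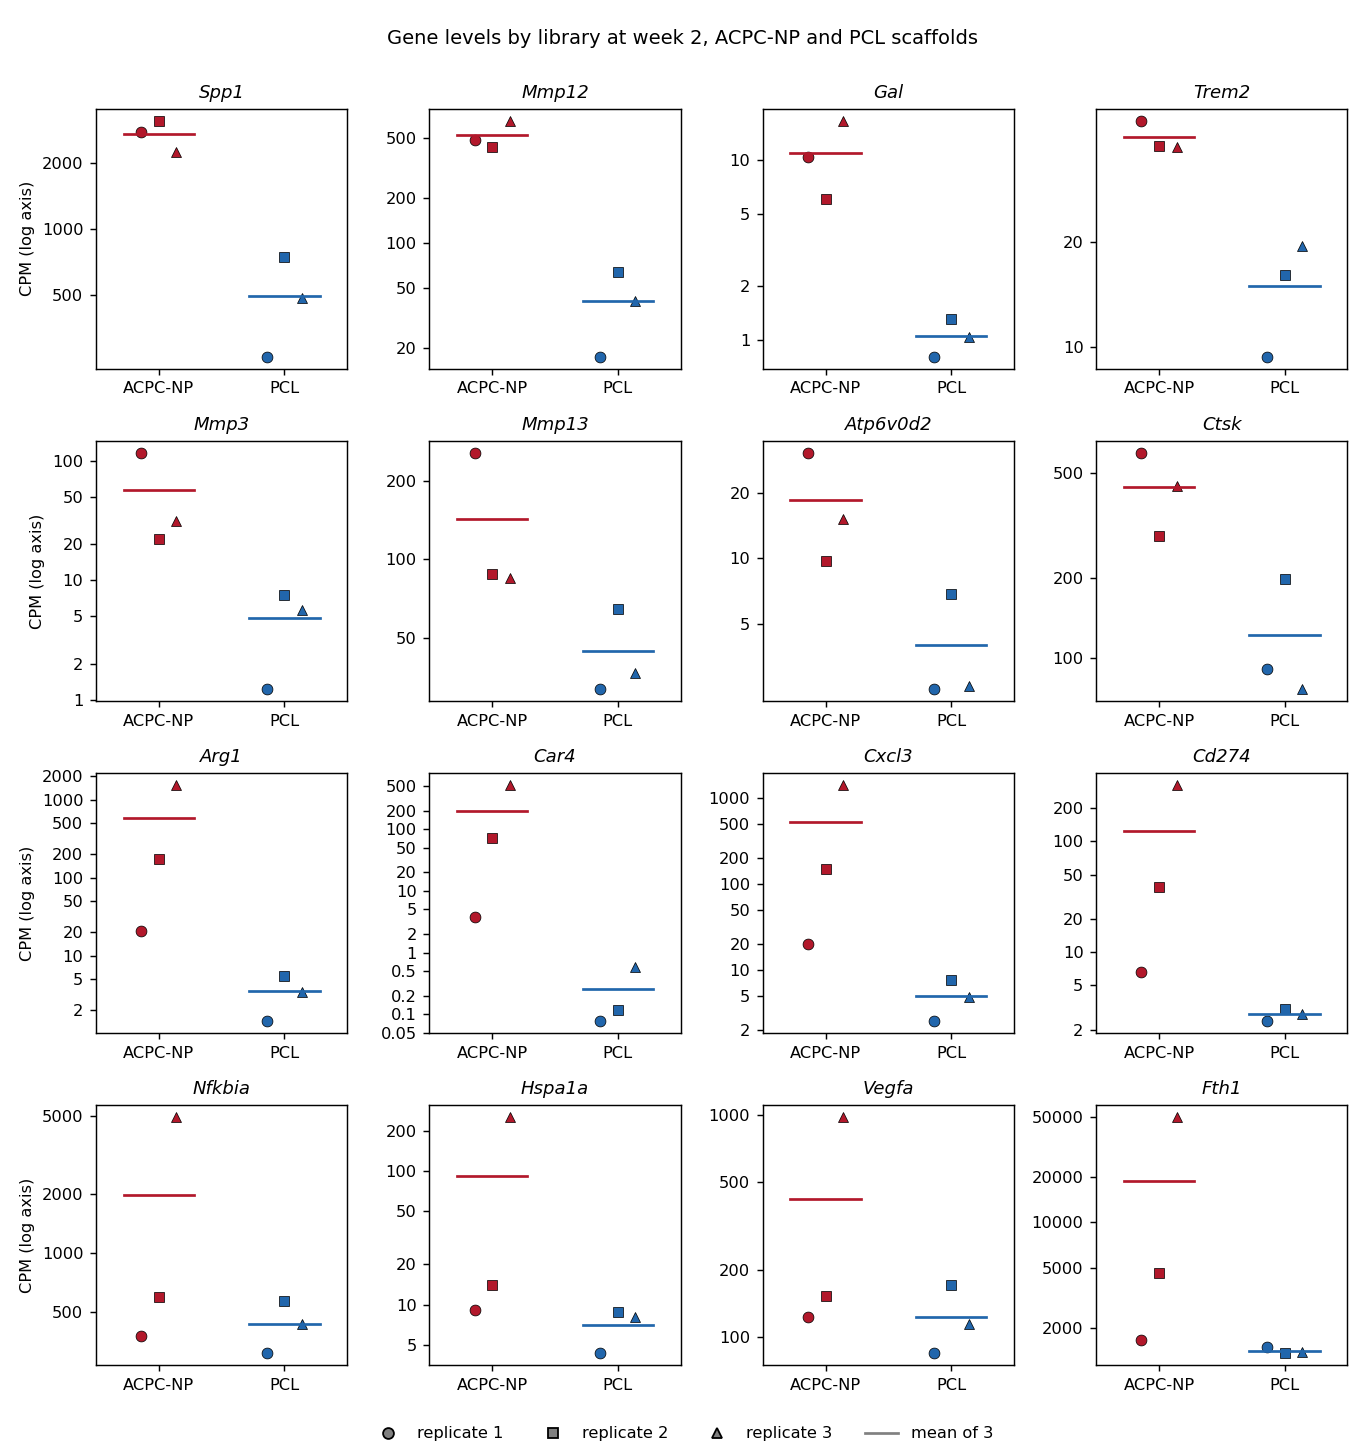
CPM of 16 genes in the 3 ACPC-NP and 3 PCL libraries of week 2, on log axes, with a symbol per replicate and a bar at the mean of 3. The top row shows genes high in all 3 ACPC-NP libraries, with Gal more spread than the others. The second row shows genes whose highest value was in replicate 1. The third row holds genes spread over the 3 libraries with replicate 3 highest, and the bottom row genes that were high mainly in replicate 3.

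Matrix proteases, which cut collagen and other matrix proteins, and their inhibitors were mostly higher beside ACPC-NP. Of 16 tested members 9 were separated higher, beside 9.56% of all genes, and 2 lower, beside 7.4%. The median log2 difference was 1.50, and 0.95 without replicate 3, where the median over all genes was -0.01 and -0.01. The median of this list was alike in the 3 ACPC-NP libraries, at 1.07, 0.90 and 0.95 above the PCL mean on the log2 scale. Stromelysin 1 (Mmp3), which cleaves proteoglycans and activates collagenases, stood at 116, 21.9 and 30.9 CPM against 1.23, 7.52 and 5.62. Stromelysin 2 (Mmp10) stood at 13.9, 3.27 and 3.54 against 0.230, 0.634 and 0.874, and collagenase 3 (Mmp13), made by hypertrophic chondrocytes and osteoblasts, at 256, 87.9 and 84.5 against 31.7, 64.4 and 36.7. All 3 genes were highest in ACPC-NP replicate 1 and were separated from PCL. Their differences were 3.56 ± 1.00, 3.57 ± 1.02 and 1.69 ± 0.65, with adjusted p of 0.103, 0.105 and 0.214. Without replicate 3 they were 3.84, 3.88 and 1.94.

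The membrane-bound activator Mmp14 stood at 212, 225 and 569.6 against 30.6, 69.7 and 54.5, and Mmp19 at 50.7, 35.3 and 163 against 16.2, 12.2 and 19.3, both with the highest value in replicate 3. Their differences were 2.7 ± 0.67 (adjusted p = 0.0846) and 2.38 ± 0.53 (adjusted p = 0.0818). The inhibitors were also separated higher. Timp1 stood at 78.8, 58.8 and 146 against 21.7, 32.9 and 39.6, Timp2 at 151, 158 and 402 against 69.7, 89.8 and 108 and Timp3 at 73.3, 24.4 and 22.3 against 7.82, 16.4 and 13.3. Without replicate 3 the differences were 2.07 for Mmp14, 1.43 for Mmp19, 1.12 for Timp1, 0.78 for Timp2 and 1.96 for Timp3. Timp3 shared the pattern of Mmp3, with replicate 1 highest. The neutrophil collagenase Mmp8 was separated lower, at 907, 993 and 768 against 1217, 1188 and 1071, and the gelatinase Mmp9 was not separated, at 1114, 947 and 1077 against 999, 907 and 918.

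Mmp12, Mmp3, Mmp10 and Mmp13, all separated higher, lie in 1 cluster of protease genes on rat chromosome 8 and each holds 1 match to TGANTCA, the AP-1 motif, within 100 bases before its start, which is why their promoters are shown. The 120 bases before each start are given from the RefSeq promoter table (build GRCr8, plus strand for all 4), with the match in capitals. They lie at chr8:12866532-12866651 for Mmp12, chr8:12925161-12925280 for Mmp3, chr8:12974587-12974706 for Mmp10 and chr8:12782709-12782828 for Mmp13.
Mmp12: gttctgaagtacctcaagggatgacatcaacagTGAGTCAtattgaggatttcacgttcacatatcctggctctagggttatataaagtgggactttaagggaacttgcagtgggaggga
Mmp3: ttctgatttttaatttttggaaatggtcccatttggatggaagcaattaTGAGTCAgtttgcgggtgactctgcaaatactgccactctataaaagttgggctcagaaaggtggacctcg
Mmp10: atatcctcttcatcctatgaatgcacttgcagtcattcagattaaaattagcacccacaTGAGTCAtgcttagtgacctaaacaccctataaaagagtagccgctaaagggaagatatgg
Mmp13: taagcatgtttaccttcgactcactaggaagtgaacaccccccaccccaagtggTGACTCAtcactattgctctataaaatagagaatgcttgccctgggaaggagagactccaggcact
Mmp8 lies in the same cluster, was separated lower, and holds 0 matches in its window. Timp1, Timp2 and Timp3, on other chromosomes and separated higher, hold 0 matches too. The 4 matches shown begin 87, 71, 61 and 66 bases before the start. TGANTCA reads the same on both strands and overlaps neither other motif searched. Over the table's 300-base windows (250 bases before to 50 after the start) it was found in 4 of 12 list members with an entry and in 7.33% of all 27457 promoters. This describes the letters only.

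Osteoclast genes were higher beside ACPC-NP, most of them modestly. Of 14 tested members 8 were separated higher, beside 9.56% of all genes, and 0 lower, beside 7.4%. The list's median was 0.91 (0.47 without replicate 3). The patterns differed between members. Nfatc1, the master transcription factor of osteoclasts, stood at 98.3, 86.0 and 109 CPM against 69.3, 64.9 and 66.2, a difference of 0.55 ± 0.12 (adjusted p = 0.0818) with a narrow spread in both groups. Acp5, the tartrate-resistant acid phosphatase, stood at 319, 216 and 392 against 147, 165 and 120.1, and Siglec15, a receptor needed for precursor fusion, at 5.35, 2.76 and 4.72 against 0.766, 1.15 and 0.749. Siglec15 differed by 2.26 ± 0.61 (adjusted p = 0.095), and by 2.17 without replicate 3. Both were separated, with replicate 2 the lowest of the ACPC-NP libraries.

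Other osteoclast genes followed Mmp3 in being highest in replicate 1. Atp6v0d2, a proton pump subunit tied to cell fusion, stood at 30.7, 9.74 and 15.2 against 2.49, 6.81 and 2.58. Tnfrsf11a, the receptor RANK, stood at 13.6, 5.92 and 6.51 against 2.49, 3.33 and 3.79. Tnfrsf11b (osteoprotegerin), a decoy receptor for the RANK ligand and no member of the osteoclast list, was also highest in replicate 1. It stood at 7.36, 3.31 and 2.92 against 1.26, 1.35 and 1.83. Ctsk, the cathepsin that digests bone collagen, stood at 599, 289.8 and 448 against 91.1, 199.8 and 76.2. Each of the 4 was separated, and their differences without replicate 3 were 2.34, 1.60, 1.84 and 1.85. Tnfsf11, the RANK ligand, is listed at 0 in all 18 libraries of the series, so absence and a failure to count it cannot be told apart. The other growth signal of the lineage, Csf1, stood at 56.6, 133 and 575 against 18.1, 31.0 and 22.7, with a difference of 3.41 ± 0.67 (adjusted p = 0.0712). Its receptor Csf1r stood at 407, 382 and 559.7 against 210.4, 214 and 267. Csf1 was spread widely over the ACPC-NP libraries and Csf1r was not; without replicate 3 they were at 1.98 and 0.77, and DESeq2 then called Csf1 (adjusted p = 0.00355).

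Osteoblast genes other than Spp1 differed little. Of 16 tested members 1 was separated higher (Spp1) and 1 lower (Alpl, the alkaline phosphatase of mineralising cells, at 91.5, 112 and 67.3 CPM against 121, 142 and 115). Among all genes 9.56% were separated higher and 7.4% lower. Runx2, the factor of osteoblast fate, stood at 40.8, 40.4 and 38.7 against 34.8, 38.9 and 36.5, a difference of 0.12 ± 0.14 (adjusted p = 0.713). Col1a1 stood at 20201, 21172 and 7546 against 14804, 23464 and 18272, and its low value was that of replicate 3. The list's median was -0.22, and 0.10 without replicate 3. By library the list stood at 0.16, 0.14 and -1.01 relative to the PCL mean, so replicates 1 and 2 were within the PCL range (-0.26 to 0.40) and replicate 3 below it. Col1a2 is listed at 0.112 to 0.473 CPM, far below its partner chain Col1a1, so its count is uncertain.

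Cartilage genes gave no stable direction. Col2a1, the collagen of cartilage, stood at 969.7, 1276 and 759 CPM with ACPC-NP and at 227, 7318 and 135 with PCL. The 3 ACPC-NP libraries lay close together, below PCL replicate 2 and above the other 2 PCL libraries. Col9a1, a collagen on the same fibrils, showed this order too, at 36.7, 38.3 and 13.9 against 7.20, 249 and 2.62. None of the 14 members tested was separated in either direction. The list's median of -1.36 turned to 1.77 without PCL replicate 2, and was -1.91 and -1.87 without PCL replicates 1 and 3.

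**Figure D3:**
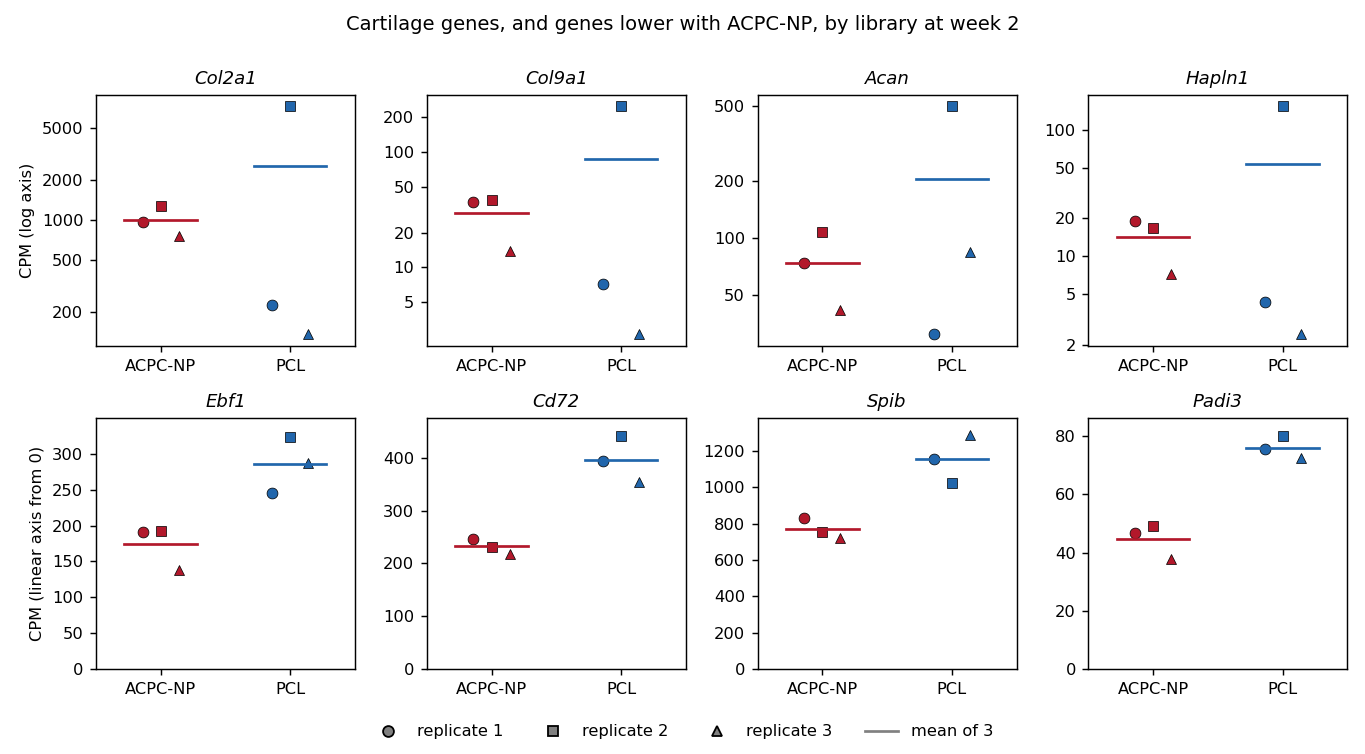
CPM of 4 cartilage genes (top, log axes) and of 4 genes lower with ACPC-NP (bottom, linear axes from 0) in the 6 libraries of week 2, with a symbol per replicate and a bar at the mean of 3. In the top row PCL replicate 2 is the highest library for every gene, and in the bottom row all 3 ACPC-NP libraries lie below all 3 PCL libraries.

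Genes of activated macrophages spread widely over the ACPC-NP libraries. They were lowest in ACPC-NP replicate 1 and highest in replicate 3, and many were above PCL in all 3. Arg1, the arginase of alternatively activated macrophages, stood at 21.1, 176 and 1540 CPM against 1.46, 5.58 and 3.50. Irg1 (Acod1), which makes itaconate in inflamed macrophages, stood at 17.9, 95.2 and 802 against 4.45, 8.28 and 5.87. Each ACPC-NP library was above each PCL library for both genes, while the ACPC-NP libraries themselves differed many-fold. The differences were 7.36 ± 1.35 (adjusted p = 0.0712) and 5.62 ± 1.04 (adjusted p = 0.0712). Without replicate 3 they were 4.80 and 3.18, and DESeq2 gave adjusted p of 3.53e-04 and 7.57e-05. At that setting edgeR gave 0.151 and 0.151.

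Car4, a membrane-anchored carbonic anhydrase, had the largest difference among the genes named. It stood at 3.74, 71.8 and 522 CPM with ACPC-NP and at 0.0766, 0.119 and 0.583 with PCL, where it had only 2, 3 and 14 reads. The difference was 9.59 ± 1.66 (adjusted p = 0.0712), and 7.18 without replicate 3; both rest on those few reads. Beside 9.56% of all genes, 3 of 10 tested carbonic anhydrases were separated higher, and the list's median was -0.18. Car2, the enzyme of red cells and osteoclasts, was not among them, at 1419, 1071 and 622 against 1419, 822 and 1302.

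The M1-type list, genes textbook accounts assign to inflammatory macrophages, had a median of 3.17, and 5 of 13 members were separated higher. The M2-type list, genes of alternative activation, had a median of 1.55, with 7 of 12 separated higher and 1 lower. Among all genes 9.56% were separated higher and 7.4% lower. Without replicate 3 the medians were 0.86 and 0.78. By library the M1-type list stood at 0.33, 1.50 and 4.61 and the M2-type list at 0.58, 1.14 and 2.44 above the PCL mean. Il1b stood at 554, 1095 and 9502 CPM against 247, 575 and 414, and Nos2, the inducible nitric oxide synthase, at 201, 890.1 and 6367 against 128, 345 and 217. For both, ACPC-NP replicate 1 was inside the PCL range and the groups overlapped. Without replicate 3 they differed by 0.99 and 1.24. On the M2-type side the scavenger receptor Msr1 stood at 32.5, 109 and 275 against 12.8, 12.5 and 23.7 and the folate receptor Folr2 at 22.2, 34.3 and 91.8 against 14.5, 9.86 and 14.7. These were separated, with differences of 3.09 ± 0.61 (adjusted p = 0.0712) and 1.92 ± 0.48 (adjusted p = 0.0846), or 2.11 and 1.11 without replicate 3. Retnla, a further gene of that state, is listed at 0 in all 6 libraries.

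General monocyte and macrophage genes were higher as well: 10 of 12 were separated higher, beside 9.56% of all genes. The list's median was 1.00 (0.47 without replicate 3). Cd68, a lysosomal glycoprotein of macrophages, stood at 296, 302 and 664 CPM against 152, 158 and 173 and differed by 0.88 without replicate 3. The inhibitory Fc receptor Fcgr2b stood at 94.8, 200.4 and 1084 against 53.3, 54.2 and 52.0, a difference of 3.11 ± 0.61 (adjusted p = 0.0712), against 1.46 when replicate 3 was left out (DESeq2 adjusted p = 9.31e-05). Lyz2, the lysozyme shared with neutrophils, went the other way, at 7399, 6287 and 6265 against 8222, 7586 and 8319. The summed level of the list was 9127, 8574 and 12623 CPM with ACPC-NP and 9558, 8934 and 9670 with PCL. Lyz2 made up most of each sum except that of ACPC-NP replicate 3, so the sums say little about the other members. The part of macrophage content in the other macrophage results was not tested.

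Genes of phagocytosis and lipid handling load and digest the contents of lysosomes. They were separated higher for 13 of 20 members, beside 9.56% of all genes, and lower for 0, beside 7.4%. Their median was 1.44, and 0.72 without replicate 3. Gpnmb, a glycoprotein of lysosome-rich macrophages and osteoclasts, stood at 1064, 2074 and 10021 CPM against 173, 324 and 267. The lysosomal protease Ctsl stood at 211, 571 and 3541 against 56.2, 92.2 and 115, and the lipid carrier Fabp5 at 118, 130.2 and 488 against 27.6, 52.4 and 45.9. In all 3 genes even the lowest ACPC-NP library was well above PCL. The differences were 4.11 ± 0.82, 4.04 ± 0.82 and 2.55 ± 0.55, with adjusted p of 0.0712, 0.0712 and 0.0818, and without replicate 3 they were 2.61, 2.15 and 1.55. Apoe, a lipid carrier protein, stood at 1085, 1829 and 4275 against 362, 769 and 841, and Plin2, the coat of lipid droplets, at 175, 418 and 4822 against 87.4, 143 and 108. Both were separated, at 1.14 and 1.39 without replicate 3. Lpl, lipoprotein lipase, was the exception in pattern: it stood at 212, 80.1 and 29.6 against 24.1, 48.5 and 43.8, highest in replicate 1 and inside the PCL range in replicate 3.

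Iron and stress genes were dominated by replicate 3. Fth1, the ferritin heavy chain, stood at 1658, 4569 and 49702 CPM against 1478, 1347 and 1379. Ftl1, the light chain, stood at 1153, 1510 and 7801 against 1038, 1012 and 1141, and Hmox1, which releases iron from haem, at 163, 344 and 2037 against 152, 152 and 145. All 3 were separated, but replicate 1 was only just above PCL in each. Their differences of 3.73 ± 0.83, 1.71 ± 0.50 and 2.50 ± 0.63 were 1.14, 0.32 and 0.75 without replicate 3. Other members of the iron list did not follow: Tfrc, the transferrin receptor, stood at 954, 915 and 894 against 780.3, 765 and 993, and the list's median was 0.37. Akr1b8, an aldo-keto reductase of the oxidative stress list, stood at 29.1, 74.6 and 518 against 7.97, 15.4 and 19.6 and differed by 1.85 without replicate 3. That list's median went from 1.05 to 0.07. The ferritin genes have many near-identical copies in the genome, so reads assigned to them are uncertain.

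Complement and pattern receptors gave a mixed picture. C2, a protease of the classical pathway, stood at 118, 135 and 291 CPM against 45.1, 52.9 and 60.3. It was separated, and differed by 1.26 without replicate 3. C1qa, a chain of the C1q recognition complex, was not, at 79.0, 81.5 and 97.3 against 129.9, 54.1 and 115, and the list's median was 0.51 (0.27 without replicate 3). Clec7a (Dectin-1), a receptor for fungal wall sugars, stood at 229, 311 and 1060 against 179, 187 and 189, a difference of 1.53 ± 0.43 (adjusted p = 0.102), against 0.54 when replicate 3 was left out. Chit1, a chitinase of macrophages, was separated in the other direction, at 101, 106 and 86.6 against 162, 128 and 116. Chia, the acidic chitinase, is listed at 0 in all 18 libraries of the series, so its count is uncertain. Of the 16 genes tested in that list 3 were separated higher and 1 (Chit1) lower, beside 9.56% and 7.4% of all genes.

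Chemokines, the signals that draw leukocytes, were separated higher for 11 of 22 members, beside 9.56% of all genes, and lower for 0. Their median was 2.39, and 1.33 without replicate 3. Cxcl3, which draws neutrophils, stood at 19.7, 149 and 1402 CPM against 2.53, 7.64 and 4.79. Ccl4, which draws monocytes and T cells, stood at 8.66, 42.6 and 207 against 2.07, 3.68 and 2.71, and the monocyte chemokine Ccl12 at 2.72, 13.2 and 67.7 against 0.230, 0.238 and 0.541. Replicate 1 was the lowest ACPC-NP library for each and still above all PCL libraries. The differences were 6.71 ± 1.16, 4.93 ± 0.85 and 6.36 ± 1.27, each with an adjusted p of 0.0712. Without replicate 3 they were 4.07, 3.17 and 4.54, and DESeq2 gave adjusted p of 1.03e-06, 2.21e-05 and 0.0158.

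Not all chemokines had replicate 3 highest. Ccl9, made by osteoclasts and macrophages, stood at 219, 102 and 146 CPM against 8.05, 58.1 and 29.7, with replicate 1 highest. The interferon-induced T cell attractants Cxcl10 and Cxcl11 were high in replicates 2 and 3 alike. Cxcl11 stood at 1.26, 10.4 and 9.15 against 0.153, 0.554 and 0.250 and was separated, whereas Cxcl10 stood at 3.78, 32.7 and 31.0 against 3.91, 4.40 and 5.08, with replicate 1 below all PCL libraries. Without replicate 3 Ccl9 differed by 2.32 and Cxcl11 by 4.17. Cxcl13, which draws B cells, stood at 6.53, 7.77 and 20.3 against 0.307, 0.792 and 1.33, a difference of 3.82 ± 1.03 (adjusted p = 0.0955). It was 3.14 without replicate 3. Cxcl12, the marrow retention signal, was not separated, at 19.8, 29.8 and 21.5 against 23.1, 20.9 and 46.6.

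In the interleukin 1 family the agonist Il1a stood at 40.7, 145 and 1440 CPM against 10.3, 22.0 and 10.8, and the receptor antagonist Il1rn at 282, 1061 and 6396 against 106, 166 and 131. Both were separated and spread in the same order over the ACPC-NP libraries. Their differences were 5.24 ± 1.03 (adjusted p = 0.0712) and 4.26 ± 0.81 (adjusted p = 0.0712). Without replicate 3 they were 2.68 and 2.31, with DESeq2 adjusted p of 0.0013 and 3.53e-04. The anti-inflammatory cytokine Il10 stood at 1.38, 5.60 and 44.8 against 0.575, 1.03 and 0.708 and differed by 2.16 without replicate 3 (DESeq2 adjusted p = 0.0354). Il6, an inflammatory cytokine, stood at 5.51, 22.0 and 233 against 3.45, 7.88 and 6.29, was not separated, and differed by 1.22 without replicate 3.

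**Figure D4:**
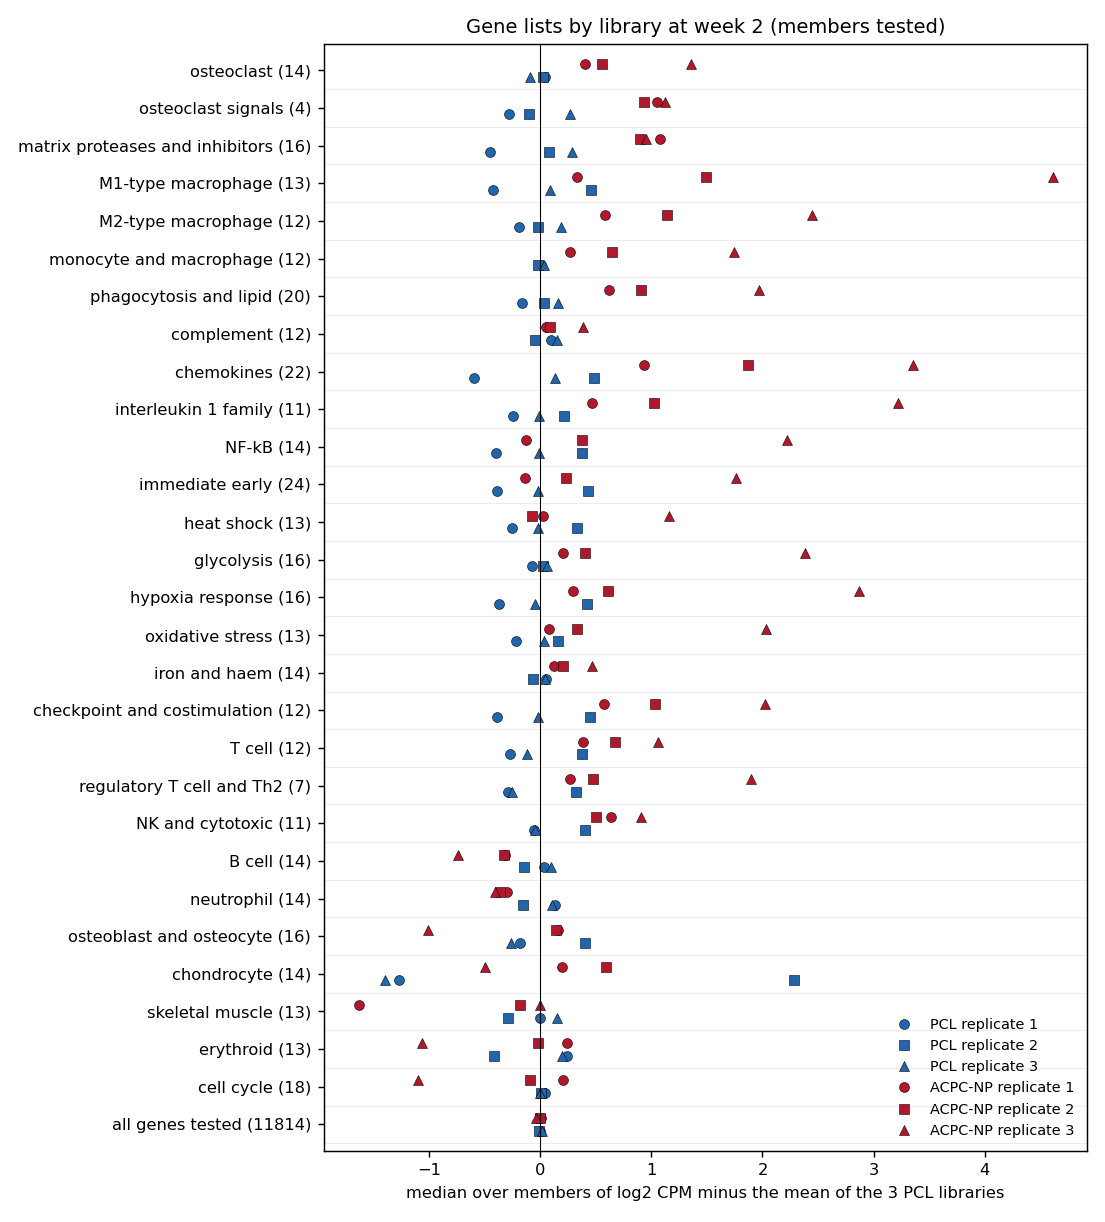
For 28 gene lists and all genes tested, the median over members of log2 CPM minus each gene's mean over the 3 PCL libraries (horizontal axis), 1 symbol per library of week 2, with the number of members tested in brackets. Matrix proteases stand near 1 in all 3 ACPC-NP libraries, chemokines at 0.94, 1.87 and 3.36, and the NF-kB list at -0.13, 0.38 and 2.22.

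A further set of lists differed from PCL in replicate 3 and hardly in the others. The NF-kB list holds subunits of this inflammatory transcription factor and its feedback inhibitors, the immediate early list genes switched on within minutes of a stimulus, and the heat shock list chaperones. Their medians of 1.13, 0.83 and 0.42 became 0.05, 0.01 and -0.05 without replicate 3. Nfkbia, the inhibitor that NF-kB itself induces, stood at 377, 597 and 4921 CPM against 306, 567 and 431. The chaperone Hspa1a stood at 9.17, 13.9 and 256 against 4.29, 8.83 and 8.04. ACPC-NP replicate 1 of Nfkbia was inside the PCL range and replicate 2 just above it, while Hspa1a was separated by a narrow margin. Without replicate 3 Nfkbia differed by 0.15 and Hspa1a by 0.70. Sod2 and Tnfaip2 were the 2 of 14 tested members of the NF-kB list that were separated higher, beside 9.56% of all genes. Sod2, a mitochondrial superoxide dismutase, differed by 1.09 without replicate 3. Tnfaip2, a gene induced by TNF, stood at 44.4, 77.4 and 323 against 15.4, 20.3 and 22.5, and its difference of 2.93 ± 0.55 (adjusted p = 0.0712) was 1.64 without replicate 3 (DESeq2 adjusted p = 3.53e-04).

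Glycolysis genes were shifted slightly in replicates 1 and 2 and strongly in replicate 3. Of 16 tested members 12 were separated higher, beside 9.56% of all genes. The list's median of 1.36 was 0.32 without replicate 3. By library the list stood at 0.21, 0.40 and 2.38 above the PCL mean. Slc2a1, a glucose transporter, stood at 112, 303 and 2506 CPM against 39.8, 89.1 and 64.6, and Ldha, which turns pyruvate into lactate, at 469, 533 and 2181 against 386, 422 and 422. Both were separated; without replicate 3 they differed by 1.68 and 0.28. The hypoxia list had a median of 1.69 (0.40 without replicate 3) with 5 of 16 separated higher, again beside 9.56%. Vegfa, the vessel growth factor, stood at 123, 152 and 976 against 84.1, 170.4 and 114. Its groups overlapped, and it differed by 0.16 without replicate 3. Oxidative phosphorylation genes had a median of 0.01. Tpi1 is listed below 3 CPM in these libraries, and several glycolysis genes have near-identical processed copies, so their counts are uncertain.

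Promoters of NF-kB and glycolysis members are shown because these genes were high together in replicate 3. Those of Nfkbia and Nfkbiz are given with their match to GGGNN directly followed by TTTCC, an NF-kB site, in capitals, and that of Ldha with ACGTG, the core that hypoxia-inducible factors bind, in capitals. The windows are the 120 bases before the start in RefSeq's GRCr8 table: chr6:78597073-78597192 (minus strand), chr11:58251601-58251720 (plus strand) and chr1:106507972-106508091 (plus strand).
Nfkbia: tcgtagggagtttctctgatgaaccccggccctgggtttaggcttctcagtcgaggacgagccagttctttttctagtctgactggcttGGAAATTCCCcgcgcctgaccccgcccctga
Nfkbiz: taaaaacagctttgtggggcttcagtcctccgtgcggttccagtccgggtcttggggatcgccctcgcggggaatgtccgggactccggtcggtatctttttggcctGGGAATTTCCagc
Ldha: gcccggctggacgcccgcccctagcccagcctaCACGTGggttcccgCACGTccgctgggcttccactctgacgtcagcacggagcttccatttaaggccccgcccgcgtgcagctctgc
Both strands were searched, so a match may read in reverse, and matches to ACGTG on opposite strands overlap in CACGTG. The NF-kB motif was found in 6 of 16 NF-kB list promoters and in 1.51% of all. Of those 6, Rel and Tnfaip3 were not matched to the count table, so whether they were high in replicate 3 is not known here. ACGTG was found in 6 of 15 glycolysis promoters and in 19.7% of all. The matches are descriptions of sequence.

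Genes of T and cytotoxic cells were low in level and leaned higher beside ACPC-NP. Foxp3, the transcription factor of regulatory T cells, stood at 2.44, 3.27 and 4.72 CPM against 0.690, 0.990 and 1.08. Il2ra, the interleukin 2 receptor chain of the same cells, stood at 3.19, 5.60 and 10.8 against 0.881, 2.14 and 1.04. Both were separated, and every ACPC-NP library contributed. Foxp3 differed by 1.91 ± 0.31 (adjusted p = 0.0712) and by 1.62 without replicate 3 (DESeq2 adjusted p = 0.00227). In the CaP libraries of week 2 Foxp3 ranged from 1.64 to 3.23, overlapping ACPC-NP. Cd8a of cytotoxic T cells stood at 15.8, 18.7 and 26.3 against 7.93, 11.7 and 10.2, and perforin (Prf1) at 6.42, 7.73 and 18.3 against 2.99, 3.52 and 2.50. Prf1 differed by 1.84 ± 0.36 (adjusted p = 0.0712), and by 1.22 without replicate 3 (DESeq2 adjusted p = 0.0182). In the CaP libraries of week 2 Cd8a ranged from 10.02 to 17.5 and Prf1 from 5.09 to 8.11, so both overlapped ACPC-NP there. The T cell list had 5 of 12 members separated higher, beside 9.56% of all genes, and a median of 0.76 (0.49 without replicate 3). In the NK and cytotoxic list 5 of 11 were separated higher and 1 lower, beside 9.56% and 7.4%. Cd3g, a chain of the T cell receptor complex, did not follow, and stood at 12.3, 12.1 and 14.8 against 30.2, 26.0 and 10.8.

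Cd274 (PD-L1), the ligand that restrains T cells, stood at 6.65, 38.9 and 322 CPM against 2.38, 3.05 and 2.79. It was separated, with a difference of 5.48 ± 0.97 (adjusted p = 0.0712), against 3.05 when replicate 3 was left out (DESeq2 adjusted p = 7.92e-06). Its receptor gene Pdcd1 is listed at 0 in all 18 libraries of the series, so its count is uncertain. F3, the tissue factor that starts clotting, followed the same order at 8.66, 22.9 and 221 against 1.34, 3.41 and 2.04, and differed by 5.21 ± 0.93 (adjusted p = 0.0712) or 2.79 without replicate 3 (DESeq2 adjusted p = 2.21e-05). Of the checkpoint and costimulation list 6 of 12 tested members were separated higher and 1 lower. Of the coagulation and fibrinolysis list 3 of 14 were separated higher and 0 lower. Among all genes 9.56% were separated higher and 7.4% lower.

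The 48 genes that DESeq2 called higher without replicate 3 include others outside the lists, named here after their values were seen. Pdpn, a membrane glycoprotein of stromal cells and inflamed macrophages, stood at 21.2, 127 and 908 CPM against 8.24, 10.7 and 12.2. Slc7a2, a carrier that brings arginine into the cell, stood at 37.0, 128 and 851 against 7.55, 17.8 and 11.4. Tgfbi, a matrix protein induced by TGF-beta, stood at 218, 457 and 1468 against 81.1, 105 and 154. All 3 had the order of Arg1 over the libraries and were separated, with DESeq2 adjusted p of 3.53e-04, 0.00209 and 0.0102. The 2 called lower, Napa and Srebf2, were not separated over all 6 libraries; Srebf2, a regulator of cholesterol synthesis, stood at 188, 184 and 228 against 224, 283 and 241.

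B cell genes leaned lower in all 3 ACPC-NP libraries. Of 14 tested members 7 were separated lower, beside 7.4% of all genes, and 0 higher, with a median of -0.47 (-0.38 without replicate 3). Not every member leaned lower in each library. Without replicate 3, 7 were separated lower, beside 11.5% of all genes, and 3 higher, beside 12.9%. Ebf1, which starts the B lineage, stood at 190.5, 193 and 139 CPM against 246, 324 and 287. Spib, a transcription factor of mature B cells, stood at 829, 755 and 724 against 1154, 1024 and 1286. The 3 ACPC-NP libraries lay below all PCL libraries for both. The differences were -0.71 ± 0.24 and -0.59 ± 0.27, with adjusted p of 0.162 and 0.318, and without replicate 3 they were -0.58 and -0.55. Cd72, an inhibitory receptor of B cells, stood at 247, 231 and 219 against 393, 441 and 354, and Vpreb3, a further B lineage gene, at 83.5, 80.2 and 80.3 against 134, 124 and 137. Both are among the 15 genes with the widest downward gap between the groups and differed by -0.77 ± 0.26 and -0.69 ± 0.29 (adjusted p = 0.164 and 0.262). Dntt, an early B cell gene that edits the joins of antigen receptor genes, stood at 107, 133 and 42.5 against 62.7, 91.8 and 84.9, was not separated and was lowest in replicate 3.

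Padi3, an enzyme that turns arginine in proteins to citrulline, had the smallest adjusted p of the named lower genes. It stood at 46.9, 49.2 and 37.7 CPM against 75.8, 80.0 and 72.6, with a difference of -0.77 ± 0.17 (adjusted p = 0.0818) and -0.67 without replicate 3. Nkd1, a brake on Wnt signalling, stood at 7.24, 6.19 and 6.51 against 12.5, 12.8 and 10.2, and the ligand Wnt10b at 3.23, 3.23 and 4.77 against 6.21, 9.70 and 6.04. Both were separated lower, at -0.83 and -1.19 without replicate 3. Of 16 tested Wnt list members 2 were separated lower, beside 7.4% of all genes, and 1 higher, beside 9.56%. The list's median was -0.13. Hdc, which makes histamine in mast cells and basophils, stood at 38.5, 32.4 and 40.9 against 53.4, 99.9 and 67.5, a difference of -0.98 ± 0.30 (adjusted p = 0.119), or -1.06 without replicate 3. The neutrophil list leaned lower: 5 of 14 members were separated lower, beside 7.4% of all genes, and 0 higher. The list's median was -0.37, and -0.36 without replicate 3. Camp, an antimicrobial peptide of neutrophil granules, stood at 1521, 1500 and 1510 against 2073, 1696 and 2091. The receptors Csf3r and Cxcr2 were the 2 members above 0, at 1.32 ± 0.42 and 0.60 ± 0.33. Csf3r, which receives the growth signal for neutrophils, stood at 248, 405 and 1134 against 256, 229.8 and 227 and was the only member DESeq2 called (adjusted p = 0.0309, edgeR 0.131); without replicate 3 it was at 0.45.

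The plasma cell, platelet, endothelial, fibroblast and marrow stroma lists had medians between -0.17 and 0.39, and single members stood out. Sdc1, a syndecan of plasma cells and activated macrophages, stood at 141, 183 and 1131 CPM against 19.9, 36.0 and 31.3, a difference of 4.06 ± 0.78 (adjusted p = 0.0712), against 2.47 when replicate 3 was left out. Of 5 plasma cell genes tested 2 were separated higher, beside 9.56% of all genes, and the list's median was 0.39 (0.08 without replicate 3). Besides Sdc1 this was Prdm1, a transcription factor of plasma cells and T cells, at 27.5, 31.5 and 68.7 against 11.8, 23.2 and 18.4, while Mzb1, which helps antibody folding, was not separated, at 53.9, 51.9 and 34.5 against 47.1, 62.2 and 57.5. Pf4, a chemokine of platelets that macrophages also make, stood at 48.0, 84.9 and 211 against 28.8, 18.3 and 28.9, a difference of 2.18 ± 0.40 (adjusted p = 0.0712), or 1.38 without replicate 3. The platelet glycoprotein gene Gp9 was not separated, at 2.09, 2.17 and 1.40 against 2.64, 1.15 and 3.25. Of the endothelial list 1 of 12 genes was separated lower, beside 7.4% of all genes, and 0 higher, with a median of -0.14. The lower gene was Angpt2, a regulator of vessel stability, at 6.30, 7.14 and 5.89 against 8.32, 9.50 and 12.7. The fibroblast and periosteum list had a median of -0.09 and the marrow stroma and fat list one of -0.17. In the last, 2 of 12 tested members were separated higher, beside 9.56% of all genes, and 1 lower, beside 7.4%. Fabp4, a fatty acid carrier of fat cells and macrophages, was 1 of the higher ones, at 127, 94.1 and 291 against 41.0, 45.2 and 71.0. The fat hormone gene Adipoq was at 0.630, 0.513 and 0.225 against 0.690, 0.713 and 1.04.

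Some lists were low in a single library. Cell cycle and erythroid genes had medians of -0.21 and -0.24, which were 0.04 and 0.04 without replicate 3, and no member was separated. The skeletal muscle list stood at -1.64, -0.19 and 0.00 in the 3 ACPC-NP libraries relative to the PCL mean, so replicate 1 alone was low. Acta1, the actin of skeletal muscle, stood at 7.87, 24.1 and 27.7 CPM against 29.4, 23.9 and 40.1. The summed level of the muscle list was 61.8, 83.1 and 95.7 CPM with ACPC-NP and 86.8, 79.8 and 111 with PCL, and the part of muscle content in the genes that are highest in replicate 1 was not tested.

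At week 6 the same scaffolds were compared in other libraries, and the change of the difference between the weeks was tested. EdgeR called 0.0% of genes for this change, and 0.278 was its smallest adjusted p. Unadjusted, 661 genes with a higher difference at week 6 (5.6%) and 1107 with a lower one (9.37%) had a p under 0.05. DESeq2 called 47 genes with a higher (0.398%) and 91 with a lower (0.77%) difference at week 6 than at week 2. At week 6 the fitted differences of the leading genes were closer to 0: Spp1 was at 0.44, Mmp12 at 0.65, Gal at 0.12 and Arg1 at 0.97. As these genes were picked by their week 2 values, smaller values in other libraries can follow from that choice alone. Their changes from week 2 were -2.02, -3.03, -3.27 and -6.40, with edgeR adjusted p of 0.306, 0.278, 0.278 and 0.278. Without ACPC-NP replicate 3 of week 2 the changes were -2.11, -2.82, -2.82 and -3.83, with adjusted p of 0.596, 0.593, 0.549 and 0.549. Mmp3 was at 2.31 (change -1.25, adjusted p = 0.674). The B cell gene Ebf1 was at -0.94, on the same side as at week 2. The list medians at week 6 were 0.45 for matrix proteases, -0.55 for chemokines, 0.33 for osteoclasts and -0.52 for B cells.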

How the data were processed

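Whole-number read counts per gene were deposited by the authors as 1 table of 17337 genes and 18 libraries. Per the submitters' processing notes, bcl2fastq 2.20.0, STAR 2.7.9a, Subread 2.0.1, featureCounts and the build Rnor_6.0 were used; the sources used here give no settings or use of strand, so overlapping or antisense genes cannot be told apart. Libraries were grouped by their titles. Genes with enough reads (edgeR filterByExpr, minimum count 10 and total 15) numbered 11814 and held nearly all counts. EdgeR 4.0.16 in R 4.3.3 (TMM scaling, robust quasi-likelihood test, threshold 0.05 adjusted) was fitted over all 18 libraries with a term per group, which leaves 12 residual degrees of freedom. The log2 CPM used for library medians had a prior count of 2. On simulated counts for the 11814 genes, the test found 65 of the 100 set to a 2-fold difference in this comparison. It found 93 of the 100 set to 4-fold, and 4 that were not set to differ. The changed genes were drawn from those above a low mean CPM, with noise from each gene's estimated dispersion. No simulated library lay apart as ACPC-NP replicate 3 did, so these counts do not give the power of the test on the real libraries.

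Alternatives were DESeq2 1.42.0, voom with quality weights (limma 3.58.1), DESeq2's size factors in edgeR, no filter, the replicate number as a block, only the 6 libraries compared, and each library left out. Replicate numbers did not pair the libraries: deviations of same-numbered ACPC-NP and PCL libraries correlated at 0.143, -0.051 and -0.048. Libraries of a group differed by more than counting noise (chi-square per degree of freedom of 31.2 or more), so none was treated as a duplicate. The comparison and its 50 gene lists were chosen with earlier results of these data known. The named genes are, of each list, the first 2 tested and up to 4 more of smallest p, the 15 genes with the widest gap between the groups in each direction, and a panel of 10; 27 of the 112 tested genes named fall outside this and were chosen after their values were seen. Promoter sequences are from RefSeq's table for GRCr8, a later build than that of the counts, matched by symbol, and no coordinates were carried between builds.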

Additional observations from a re-analysis of the deposited data

How the results depend on the processing

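The count of called genes depended on the test and on single ACPC-NP libraries. EdgeR called 0 genes, against 631 with DESeq2 (601 higher, 30 lower), 281 with voom and 50 with DESeq2 without ACPC-NP replicate 3. Leaving out 1 library of the groups compared gave 0 to 877 with edgeR: 877 without ACPC-NP replicate 1, 383 without ACPC-NP replicate 2 and 0 without the others. DESeq2's size factors, no low-count filter, only the 6 libraries compared (also without replicate 3, an alternative added after seeing the data) and voom without replicate 3 each gave 0. With the replicate block edgeR again called 0 genes, here and for the change to week 6, so the block changed no call. For that change edgeR called 0 genes, DESeq2 138 and voom 1930, and leaving out 1 library gave 0 to 148, the non-zero counts being 148 without ACPC-NP week 2 replicate 1 and 62 without PCL week 6 replicate 1. Why the tools differ was not tested.

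Of 1676 values of the 112 genes named under 15 alternatives, 19 changed sign. Col2a1, Col9a1 and Col1a1 turned positive with voom (1.95, 2.17 and 0.23), also without replicate 3 (1.83, 2.19 and 0.23). With 1 library left out they ranged from -1.91 to 2.47, from -2.11 to 2.59 and from -0.44 to 0.12, Col1a2 from -0.25 to 0.49, Dntt from -0.093 to 0.58, Car2 from -0.48 to 0.066, C1qa from -0.51 to 0.029 and Cxcl12 from -0.56 to 0.11. Without replicate 3 Col1a1 was also positive with DESeq2 (0.13) and with only the libraries compared (0.12), as was Car2 (0.070 and 0.068). Of 750 list medians 102 moved by more than the spread between libraries. Total counts were alike, but after TMM scaling the library size of ACPC-NP replicate 3 was 17815348 against 24020919 to 26099548 in the other 5. Precision was also limited by few reads, as for Car4, Ccl12 and Gal in PCL, and by 3 libraries a group.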
